A study of Mus musculus with 8 samples.

Results

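A set of 622 regions of the mouse genome carried high-scoring H3K27ac peaks in small intestinal crypts of both fasted libraries and no peak in either fed library. They were chosen from 43091 regions made by merging the peaks of all libraries wherever they shared 1 bp or more. Members lie on autosomes. The highest peak score of a member is at or above the 70th percentile of its own list in both fasted libraries, where the percentile is the share of its peaks that score no higher. Of 22696 autosomal regions with a peak in both fasted libraries, 8112 had no fed peak, and the 622 members are the higher-scoring part of these. Presence of peaks in the 4 libraries and the fasted scores chose the members, so these values are described without a test.

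H3K27ac, histone H3 acetylated at lysine 27, is a mark of active enhancers and promoters. Acetyltransferases such as CBP write it and histone deacetylases remove it, so it can appear and disappear at a regulatory element as the element is used. Crypts are small glands at the base of the intestinal epithelium, where stem cells, Paneth cells and dividing progenitors sit. Going without food changes what these cells burn and how they divide, and the study's title names signalling by ketone bodies, the fat-derived fuel made during fasting and in the gut itself.

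The mice were males and females of 6 to 12 weeks, of the strains C57BL/6J and Lgr5EGFP-IRES-CreERT2/+. The latter carries a reporter and an inducible Cre inserted at a stem cell gene, and the labels do not say which strain went into which library. Fed mice had free food and water for 24 h, and fasted mice had water but no food for the same 24 h, all singly housed. Whole crypts of 4 animals were pooled for each library, with 100 nM trichostatin A, an inhibitor of histone deacetylases, in the isolation solutions of both groups. The libraries are named by their label numbers as fed 1, fed 4, fasted 2 and fasted 5. Their peak lists held 27640, 15504, 37974 and 35917 peaks. The lists hold no read counts, so sequencing depth is unknown, and depth limits which peaks can be called. In pooled crypts, more cells with the mark and more of the mark per cell cannot be told apart. No gene annotation of the lists' build, mm9, was used here, so members are given by position, no gene is assigned to them, and the crypt label was not checked against marker genes.

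The first question was how unusual it is for a region of this fasted rank to lack a fed peak. Of all 22696 autosomal regions of both fasted libraries, 35.7% had no fed peak. Among the 8442 at or above the 70th percentile in both fasted lists, 7.37% had none (exact 95% binomial interval 6.8 to 7.9%, which covers counting error only), and these are the members. That share rests on the libraries used: it was 35.6% without fed 1, 10.9% without fed 4, 12.6% without fasted 2 and 10.7% without fasted 5. It was 18.1% among peaks scoring 100 or more, 3.8% with equal numbers of peaks and 0.9% at equal covered length. Those last shares come from shortened lists in which percentiles were taken anew, so the bound of 70 stands for a higher rank there. They are therefore not shares at the fasted rank behind the 7.37%. A score of 100 can also fall at a different rank in each list. In the lists as deposited the share was lower at each higher rank. It was 18.9% of 1476 regions whose lower fasted percentile was 70 to 75, 11.57% of 1521 at 75 to 80, 6.21% of 1531 at 80 to 85 and 3.47% of 1468 at 85 to 90. It was 1.31% of 1369 regions at 90 to 95 and 0.28% of 1077 at 95 or more. Most members therefore lie near the lower bound, with 279 of 622 below percentile 75, 176 from 75 to 80, 146 from 80 to 90 and 21 at 90 or more.

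**Figure D1:**
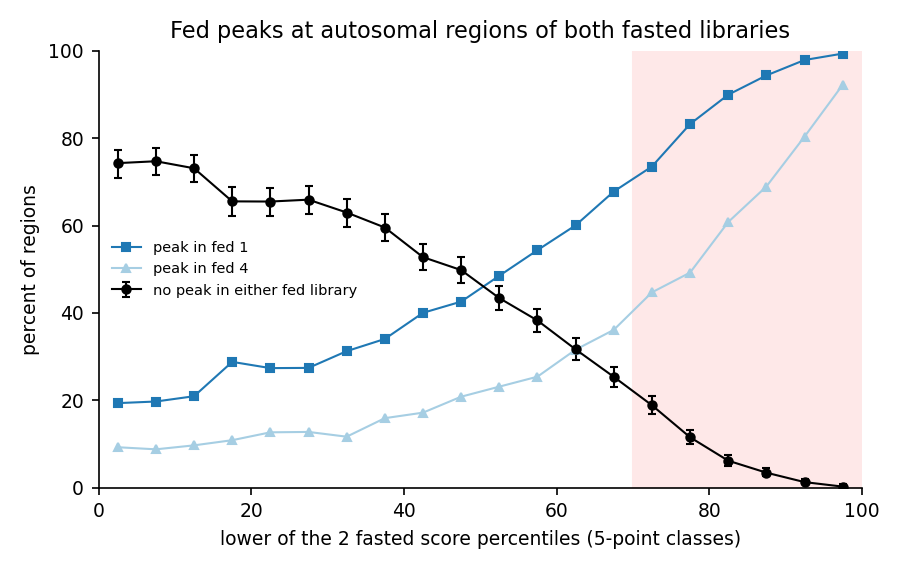
Percent of autosomal regions of both fasted libraries (y axis) that had no peak in either fed library (black, with exact 95% binomial intervals), a fed 1 peak (dark blue) or a fed 4 peak (light blue), in 5-point classes of the lower of the 2 fasted score percentiles (x axis). The shaded range is that of the members, where the black line goes from 18.9% to 0.28%.

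Fed 1 and fed 4 did not lack the same regions equally often. Of the 8442 high-ranking regions, 5148 had a peak in both fed libraries, 2375 in fed 1 alone and 297 in fed 4 alone. Where fed 4 had a peak (5445 regions), fed 1 lacked one at 5.5%. Where fed 4 had none (2997 regions), fed 1 lacked one at 20.8%, the 622 members. Of the 2997 high-ranking regions without a fed 4 peak, 2375 thus stayed out of the set through a fed 1 peak. By the fasted libraries singly, 13.8% of the 10264 regions at or above percentile 70 in fasted 2 had no fed 1 peak and 39.3% no fed 4 peak. Of the 10350 such regions of fasted 5, 17% had no fed 1 peak and 42.3% no fed 4 peak. In the reverse direction the shares were smaller in all 4 pairs of libraries: 1.91% and 2.24% of the 6118 top regions of fed 1 had no peak in fasted 2 and fasted 5, and 2.9% and 3.58% of the 3523 top regions of fed 4 had none. Names of the deposited lists give fed 1 and fasted 2 the number 10 and fed 4 and fasted 5 the number 11; the meaning of the numbers is not stated, and the direction was the same within each number.

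The mirror image of the set is nearly empty. Of 2412 autosomal regions at or above the 70th percentile in both fed lists, 2 (0.0829%) had no fasted peak, against 1.76% of all 7270 regions of both fed libraries. They lie on chromosome 1 (134240741 to 134243907) and chromosome 13 (114191418 to 114193065), 77 and 1019 bp from a fasted peak. The fasted lists are the longer ones, so list length and feeding state cannot be told apart in this contrast. Percentile 70 or more holds 11393 peaks of fasted 2 and 10776 of fasted 5. Both numbers are below the 15504 peaks of fed 4, so by the rule itself the leading peak of every member ranks among the best 15504 peaks of its fasted list. No member could fail this, so it does not separate list length from feeding state.

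How many regions met the rule depended on the libraries and on how lists were made equal. There would be 3018 members without fed 1, 921 without fed 4, 1341 without fasted 2 and 1188 without fasted 5. When each list was cut to its best 15504 peaks and percentiles were taken within them, 120 regions qualified. This made the fasted bound stricter and, by shortening fed 1, the condition of no fed peak looser. With top-scoring peaks of equal covered length, which leaves 6894 peaks of fed 1 and 15504 of fed 4 but 2834 of fasted 2 and 2615 of fasted 5, 5 qualified. The score itself, whose scale the authors do not state, was 264.94 to 1342.14 in fasted 2 (median 374.32). In fasted 5 it was 717.29 to 3216.34 (median 1175.78), and 7 members share its tied value of 3100. Scores of different lists cannot be set against each other, and no fed score exists at a member.

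The bound of 70 cuts through a continuous range of scores. A region on chromosome 11 (97047122 to 97051181) was kept at percentile 70.0 in fasted 2 (score 264.94) and 87.4 in fasted 5. Its counterpart on chromosome 17 (81075306 to 81079693) missed the bound with a score of 264.36 in fasted 2 and percentile 71.2 in fasted 5. A region on chromosome 8 (3620040 to 3623628) was kept with a score of 717.29 in fasted 5, and a region on chromosome 9 (55109788 to 55114285) was left out with 715.71.

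**Figure D2:**
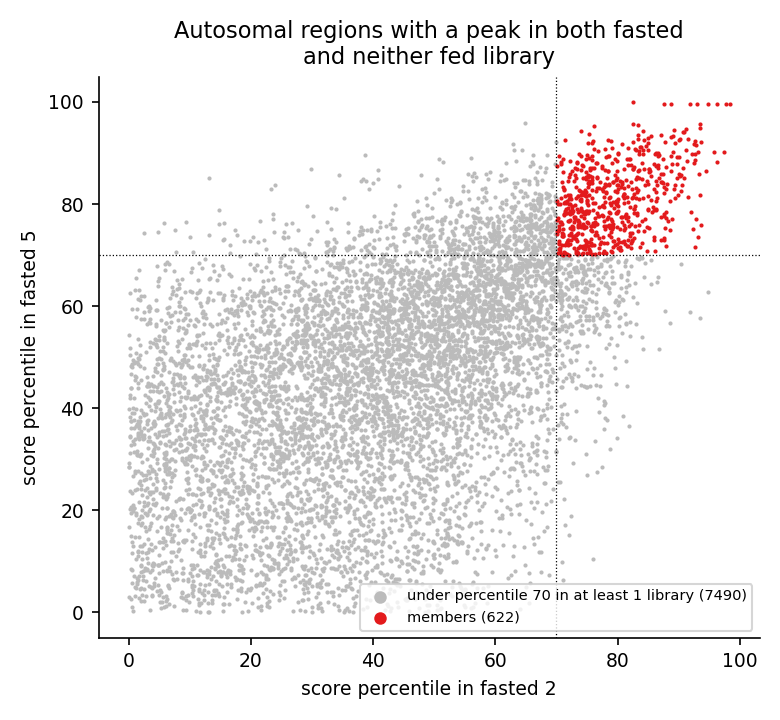
Score percentile in fasted 2 (x axis) and fasted 5 (y axis) of each of the 8112 autosomal regions that only the fasted libraries share. The 622 members (red) are the corner at or above 70 on both axes; the 7490 other regions are grey.

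On chromosome 6, 3 members lie close together, and they form the only group of more than 2 members with gaps of up to 50 kb. The first (5443880 to 5453187, 9308 bp) stood at percentile 94.5 in fasted 2 and 86.6 in fasted 5. The second (5456174 to 5464017, 7844 bp) follows after 2986 bp and is the member with the highest lower percentile of all, with 98.3 in fasted 2 and 99.6, the tied score, in fasted 5. The third (5513496 to 5520686, 7191 bp) lies 49478 bp further on, at 93.1 and 90.2. Fasted peaks covered 8427 and 8552 bp of the first, 7658 and 7140 bp of the second and 6907 and 6885 bp of the third (fasted 2 and fasted 5 in each case). The fasted libraries thus covered a like length of each of the 3, although the number of peaks differed at the first and second.

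This group and its surroundings held many peaks in the fasted lists and almost none in the fed lists. The fed lists are shorter, so a missing peak does not show that the mark was absent. In a window of 200 kb centred on the group, fasted 2 had 20 peaks over 39331 bp and fasted 5 had 18 peaks over 43569 bp. These values include the members, where the rule itself requires fasted peaks and allows no fed peak. The bases covered inside the members, given above, are part of these lengths. Fed 1 had 1 peak of 686 bp (5502457 to 5503142) with a score of 50.33, at percentile 0.7 of its list, and fed 4 had 0 peaks. The nearest fed 1 peak was 10353 bp from the third member, and the nearest fed 4 peak was 2276612 bp away. The fasted peaks outside the members were mostly weak: the strongest was a peak of fasted 5 (5534015 to 5539304) at percentile 66.1, where fasted 2 had peaks at 55.2 and 32.0.

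**Figure D3:**
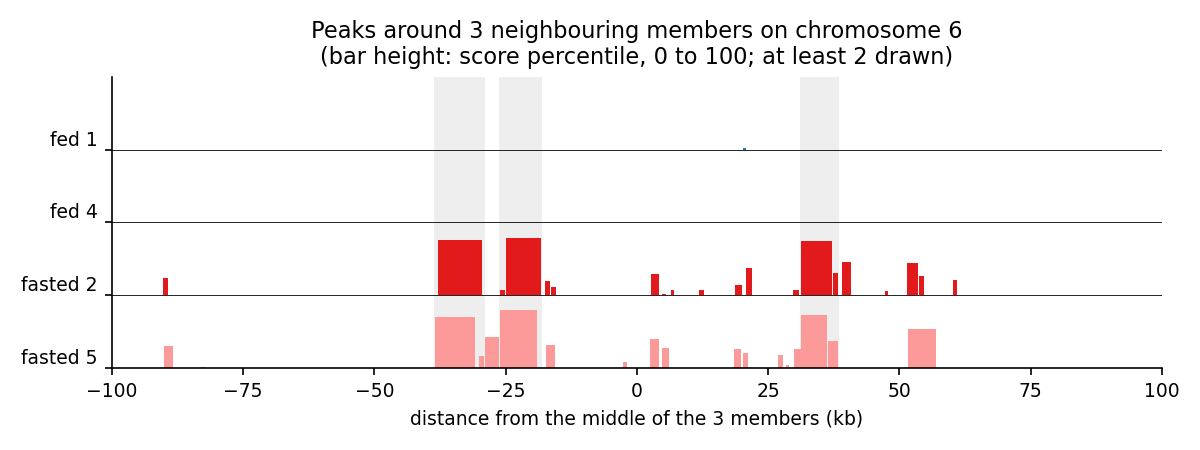
Peaks of the 4 libraries (rows) within 100 kb on either side of the middle of the 3 neighbouring members on chromosome 6 (x axis, kb; members shaded grey); bar height is the score percentile of the peak in its own list. Fasted 2 and fasted 5 have 20 and 18 peaks in the window, those in the members included, fed 1 has 1 and fed 4 has 0.

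The member with the next highest lower percentile, on chromosome 11 (60228363 to 60234639, 6277 bp), stood at percentile 97.7 in fasted 2 and at the tied 99.6 in fasted 5. A further member follows close beyond its end (60238860 to 60243471), at 82.9 and 84.8. The nearest fed peaks to the stronger of the pair were 22993 bp (fed 1) and 21635 bp (fed 4) away. Its fasted peaks differed in length, with 6277 bp in fasted 2 and 4329 bp in fasted 5.

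Further members at or above the 90th percentile in both fasted libraries differed most in how far they lie from fed peaks. On chromosome 17, a member of 7840 bp (30550245 to 30558084) at 97.4 in fasted 2 and 90.2 in fasted 5 lay 186017 bp from fed 1 and 155154 bp from fed 4 peaks. On chromosome 19, a member of 6466 bp (34950946 to 34957411) at 91.3 and 94.6 lay 233787 and 235024 bp away. On chromosome 1, a member of 3773 bp (43989400 to 43993172) at 91.6 and 92.7 lay 182747 and 183188 bp away. These 3 were far from any fed peak. By contrast, a member on chromosome 5 (114591789 to 114598237, 6449 bp) at 95.7 and 90.1 lay 582 bp from a fed 1 peak and 2140 bp from a fed 4 peak. On chromosome 15, a member of 8212 bp (38225351 to 38233562) at 94.8 and 99.6 lay 5304 bp from fed 1 and 10570 bp from fed 4. Members of middle distance were found on chromosome 8 (124170417 to 124178485, 8069 bp), at 90.9 and 94.2 with fed peaks 54741 and 54319 bp away, and on chromosome 7 (17366382 to 17371474, 5093 bp), at 90.7 and 94.1 with fed peaks 29918 and 41199 bp away. A region on chromosome 11 (87797706 to 87802033) had nearly the same edges in both fasted libraries (4316 and 4266 bp covered) at 91.2 and 90.7. Over the 30 members with the highest lower percentile, which reached down to 89.1, the median width was 4975 bp and the median distance to a fed peak 34178 bp; 8 of the 30 were within 10000 bp of a fed peak.

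The second question was what shape the members have. The rule sets no bound on shape, but the peaks are those that were scored and merged. The median member was 3766 bp wide (10th percentile 2584 bp, 90th 6524 bp). Fasted 2 peaks covered a median of 3202 bp and fasted 5 peaks 3568 bp of a member. Fasted 5 covered more bases at 446 of 622 members and fasted 2 at 176. A single peak made up the member in both fasted libraries at 499 of 622. The bases under peaks of both fasted libraries were a median of 0.82 of those under either (10th percentile 0.65, 90th 0.94), so within members the peaks of both pools lay largely on the same bases. The other fasted-only regions, which score lower, were narrower (median 2150 bp) and overlapped less (median 0.65).

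Members covered fewer bases than regions of the same fasted rank that had a fed peak. In each 5-point class from percentile 70 upward the median length under fasted peaks, averaged over both fasted libraries, was lower at members. It was 3010 against 3945 bp at 70 to 75, 3434 against 4333 bp at 75 to 80, 3559 against 4997 bp at 80 to 85 and 4090 against 5894 bp at 85 to 90. At 90 to 95 it was 4824 against 6887 bp. The last class, 95 or more, has 3 members (median 7399 against 9139 bp). With the 7820 regions with a fed peak weighted to the members' spread over these classes, called score-matched below, the medians were 3366 bp at members and 4394 bp at score-matched regions. The quartile ranges overlap in every class, and regions are not replicates, so no test is given. Members were also more often a single peak: 82.8% against 64.6% in fasted 2 and 94.4% against 82.0% in fasted 5. Regions were merged over all 4 lists, so a fed peak can join separate fasted peaks into 1 region, and a longer region meets a fed peak more easily. How much of the difference in length and in single peaks comes from this way of making the sets was not tested. Overlap between the fasted libraries was close (median 0.82 against 0.84).

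**Figure D4:**
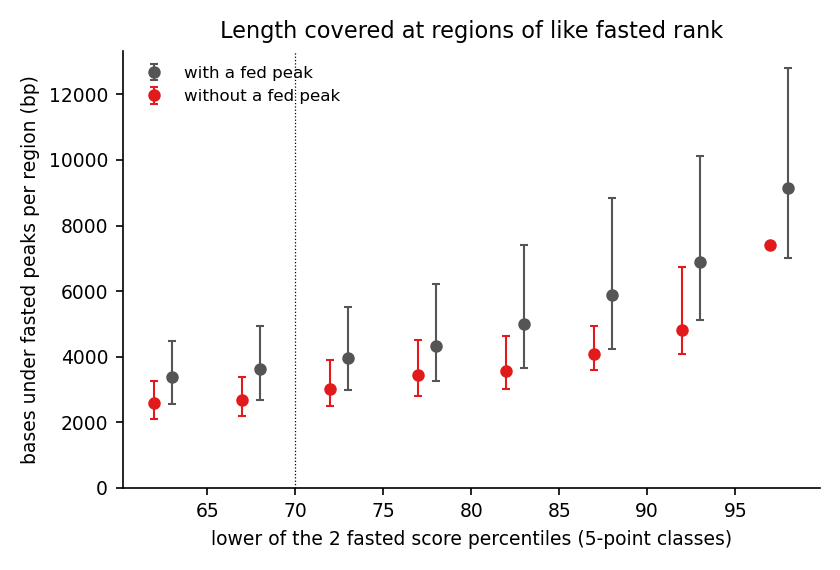
Median length under fasted peaks per region (y axis, bp, mean of the 2 fasted libraries; bars span the quartiles and are left out for the class with 3 regions without a fed peak) at regions without (red) and with (grey) a fed peak, in 5-point classes of the lower fasted percentile (x axis). To the right of the dotted line the red points are the members, and each lies below the grey point of its class.

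Among the widest members, 4 differed in covered length between the fasted libraries. A region on chromosome 7 (124621632 to 124635346, 13715 bp) was a single peak in fasted 5 and 3 peaks over 9773 bp in fasted 2, at percentiles 75.4 and 72.1. A region on chromosome 6 (114822613 to 114836061, 13449 bp) had the same form, with 13449 bp covered in fasted 5 and 7816 bp in fasted 2. On chromosome 4 (104489111 to 104499861, 10751 bp) the lengths were 10310 and 7367 bp, and on chromosome 11 (99348635 to 99359273, 10639 bp) 9570 and 7191 bp.

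Above the bound, the ranks of a member in the fasted libraries were only loosely related. Percentiles were higher in fasted 5 at 371 members and in fasted 2 at 251, with a median difference of -1.5 points (fasted 2 minus fasted 5), and 322 members were within 5 points. Spearman's rho across members was 0.39, against 0.81 across all 22696 regions of both fasted libraries; the bound at 70 in both lists narrows the range and lowers it. At 24 members the percentiles differed by more than 15 points. On chromosome 3 (96022206 to 96026725) they were 71.4 in fasted 2 and 92.5 in fasted 5, and on chromosome 11 (69483698 to 69487921) 74.0 and 94.3. The reverse was seen on chromosome 4 (117086247 to 117092503), with 92.6 and 71.6, and on chromosome 7 (148794124 to 148801706), with 93.1 and 73.6.

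The third question was how far members lie from the peaks of fed crypts. The median distance from a member to the nearest fed peak was 25302 bp, and it was 30488 bp to fed 1 and 48482 bp to fed 4, the shorter list. The nearest fed peak was of fed 1 at 460 members and of fed 4 at 162. Of the 622 members, 44 (7.1%) had a fed peak within 1000 bp, 205 (33.0%) within 10000 bp and 430 (69.1%) within 50000 bp, while 105 were more than 100000 bp from any. The lower-scoring fasted-only regions lay nearer to fed peaks: 16.0% were within 1000 bp and 53.4% within 10000 bp, with a median distance of 8217 bp. The members' median distance was 9146 bp without fasted 5, 27977 bp without fasted 2, 27846 bp without fed 1 and 25167 bp without fed 4, and 3869 bp for the 5 regions left at equal covered length.

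At the near end, some members all but touched a fed peak. The nearest was on chromosome 10 (74755914 to 74758582), 28 bp from a fed 1 peak, followed by members on chromosome 12 (82632027 to 82634497) at 35 bp, chromosome 6 (18317048 to 18322213) at 41 bp and chromosome 14 (71164312 to 71169089) at 56 bp. The nearest to fed 4, at 59 bp, lay on chromosome 3 (104852765 to 104857450), with a fed 1 peak 1546 bp away. At the far end stood a member on chromosome 7 (66482836 to 66486298, 3463 bp), at percentiles 89.5 and 92.0, with the nearest fed peak 3178063 bp away. The next farthest lay on chromosome 3 (5574397 to 5577445), 1938251 bp from a fed peak, chromosome 9 (26835498 to 26839138), 1437070 bp, chromosome 15 (51821454 to 51824247), 1210661 bp, and chromosome 4 (14790107 to 14793167), 1076571 bp. These 4 were at percentiles from 73.9 to 86.9.

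The fourth question was how the fed and fasted libraries compare around the members, in bases outside the member itself. A flank can hold another member, where the rule allows no fed peak and requires high-scoring fasted peaks. Of 131 high-ranking neighbours within 10000 bp of members, 18 had no fed peak and were thus members, counted from both sides. How much these add to the flank values below was not tested. From 1 to 25 kb beyond the members' edges, 3.84% of bases lay under peaks of fed 1 and 1.78% under those of fed 4, while fasted 2 peaks covered 9.61% and fasted 5 peaks 10.9%. The feeding states did not overlap, with means of 10.25 ± 0.91% and 2.81 ± 1.46% (SD, n = 2) and a difference of 7.44 percentage points (two-sided exact permutation p = 0.333, the smallest that 2 against 2 libraries allow). The difference was 11.97 points without fed 1, 6.71 without fed 4, 7.82 without fasted 2 and 11.01 without fasted 5. It was -1.61 points around the 5 regions left at equal covered length (exact permutation p = 0.667). Of the 622 members, 375 (60.3%) had more flank bases under peaks in both fasted than in both fed libraries and 0 had the reverse. Over all autosomal regions of both fasted libraries these shares were 77.5% and 0.137%. The members' share is thus below that of all regions; 214 members had no fasted 2 peak and 172 no fasted 5 peak in this flank, 338 had no fed 1 peak and 429 no fed 4 peak.

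Peak cover around members was lower in every library than around score-matched regions, and more so in the fed ones. Peaks covered 10.63% of the near flank of score-matched regions in fed 1 and 4.91% in fed 4, and the fasted values were 20.19% (fasted 2) and 20.22% (fasted 5). The flanks of members thus held 36.2% of that cover in fed 1 and 36.3% in fed 4, but 47.6% and 53.9% in fasted 2 and fasted 5. The gap between feeding states was 14.5 points, and they did not overlap (exact permutation p = 0.333, n = 2). From 25 to 100 kb the values were 57.4%, 54.9%, 66.1% and 70.6% in the same order (difference 12.2 points, exact permutation p = 0.333, n = 2). Members were chosen for having no fed peak inside the region and score-matched regions for having one. That choice favours a larger fed shortfall beside members, so no conclusion about feeding is drawn from these 2 tests. Around the lower-scoring fasted-only regions, also chosen without fed peaks, near-flank cover was 8.24% in fed 1 and 3.69% in fed 4. It was 17.24% in fasted 2 and 18.16% in fasted 5.

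The fasted lists cover more of the genome as a whole, so cover in the flanks was also set against the cover of each list. Of the autosomes, fed 1 peaks covered 2.03% and fed 4 peaks 0.91%, while fasted 2 covered 4.11% and fasted 5 covered 4.5%. Divided by these, cover in the near flank of members was 1.89 and 1.95 times the autosomal level in fed 1 and fed 4, and 2.34 and 2.42 times in fasted 2 and fasted 5. The difference of 0.46 had an exact permutation p of 0.333 (n = 2). Around score-matched regions the order was the opposite, with 5.23 and 5.38 times in the fed and 4.91 and 4.49 times in the fasted libraries. Members were chosen without and score-matched regions with a fed peak, which favours opposite orders also after the division. No conclusion about feeding is therefore drawn from the difference of 0.46 or from this contrast. Around lower-scoring fasted-only regions the values were 4.06 and 4.05 times in the fed and 4.19 and 4.04 times in the fasted libraries, a difference of 0.06. Before the division, the near-flank difference was 12.44 points at score-matched and 11.73 points at lower-scoring fasted-only regions. Both were larger than the 7.44 points at members. From 25 to 100 kb from members the relative values were 2.05, 2.08, 2.22 and 2.25.

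**Figure D5:**
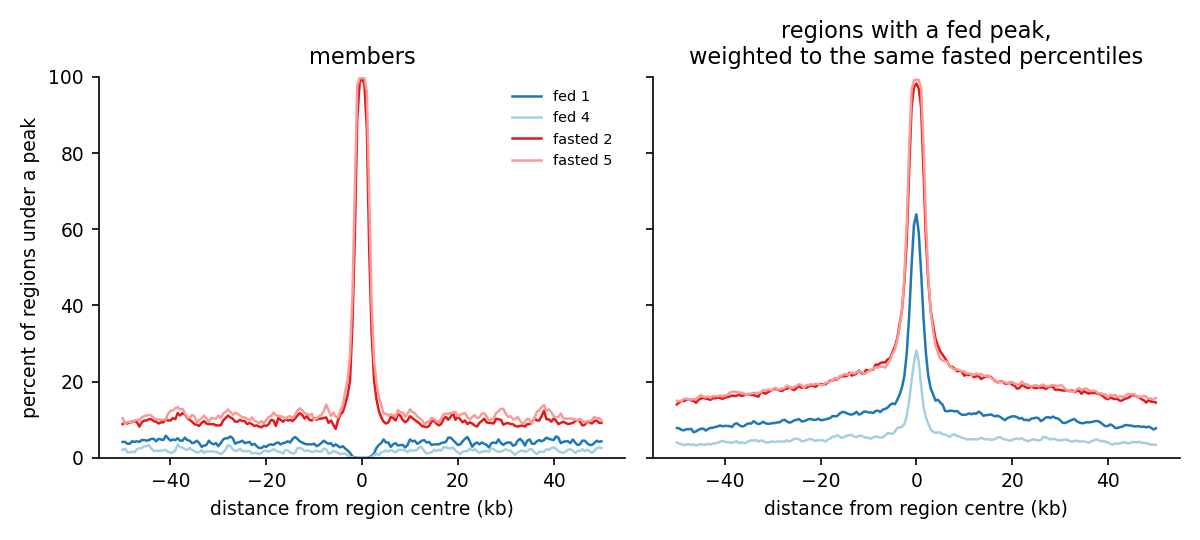
Percent of regions under a peak of each library (y axis) by distance from the region's centre (x axis, kb), for members (left) and for regions with a fed peak weighted to the same fasted percentiles (right). At the centre both fasted libraries cover 99.7% of members and both fed libraries 0.0% by the rule; on the right fed 1 covers 63.9% and fed 4 28.1%.

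Neighbouring regions were also sparser around members than around score-matched regions, and a larger share of them lacked fed peaks. Members were chosen for having no fed peak and score-matched regions for having one, which favours such a difference. No conclusion about feeding is drawn from it. Within 50 kb a member had 2.5 other regions of both fasted libraries on average, against 3.94 at score-matched regions, and 40.77% of these neighbours had no fed peak, against 30.44%. The share over all regions was 35.7%. Within 10 kb it was 46.0% against 29.74%. Counting only neighbours at or above the 70th percentile, where 7.37% of all regions lack a fed peak, the share was 9.29% within 50 kb of members (52 of 560) and 4.47% around score-matched regions. Neighbouring members count from both sides here. Most members were nonetheless alone: 571 of 622 had no other member within 50 kb, 24 pairs and the group of 3 on chromosome 6 made up the other 51, and the median gap between successive members was 2102358 bp. Among the pairs, a pair on chromosome 17 (69731162 to 69735319 and 69765615 to 69767950) lay 303650 and 338103 bp from the nearest fed peaks, at percentiles from 76.7 to 89.9. A pair on chromosome 19 (8965589 to 8969434 and 9014656 to 9020144) lay 3077 and 6806 bp from the nearest.

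Members were found on all 19 autosomes. Chromosomes 5 and 11 had the most, 50 each, and chromosome 19 the fewest, 21. As a share of the high-ranking regions of a chromosome, members ranged from 5.3% on chromosome 9 (24 of 453) to 9.31% on chromosome 18 (23 of 247), around the 7.37% of all autosomes. Chromosome 13 had 9.18% (29 of 316), chromosome 11 had 6.4% (50 of 781) and chromosome 17 had 6.15% (26 of 423). No test was made over chromosomes.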

How the data were processed

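H3K27ac was measured by chromatin immunoprecipitation and sequencing in 4 libraries, 2 fed and 2 fasted, from separate pools of animals; the 4 input libraries were not analysed here. The deposited lists hold the authors' peaks of each library with a score per peak, whose scale is not stated. The tools listed in the submitters' processing notes are deepTools 1.5.11, SAMtools 1.9, Bowtie 1.1.2 and FastQC, and the build is mm9. Peak and list names point to MACS without a shifting model, of unstated version.

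Peaks were merged and described with Python 3.11.15, numpy 2.4.6 and pandas 2.3.3, and intervals were made with scipy 1.17.1. The functions were tested on simulated lists of 203 regions with 0 mismatches. Positions are mm9 and count from 1. Autosome lengths were taken from the lowest to the highest peak of each. Score-matched regions are weighted in 5-point percentile classes. No gene table or genome of mm9 was used, so gene, motif and sequence descriptions were not made.

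The members, lists and alternatives were chosen with earlier results of these data known. Named regions are the 30 members with the highest lower percentile, the widest, the nearest to and farthest from fed peaks, those at the bound, those whose percentiles differ most and the largest groups; not all of them are printed, and a member is not reported here. Values were recomputed with other percentile bounds (60 and 80), tie handling, joining (gaps of up to 500 bp), distance to fed peaks (1000 bp), score minimum (100), list sizes and flanks, and without each library.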

Additional observations from a re-analysis of the deposited data

How the results depend on the processing

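Of 80 alternative values, 39 stayed within their limits or kept their direction, 40 moved and 1 reversed. Limits were 1.5 times for the number of members and the 95% interval of a share or median. Breaking ties downward changed none of the 6 results as printed. The number of members was 1406 at a bound of 60, 167 at 80, 944 with the mean percentile, 986 among peaks scoring 100 or more, 120 with equal numbers of peaks and 5 at equal covered length, which was added after the data were seen. The share of high-ranking regions without a fed peak was 12.6%, 3.1%, 9.5%, 18.1%, 3.8% and 0.9% in the same order. The median width was 3298, 4189, 3590, 4934, 5354 and 7073 bp, and the median overlap of the fasted libraries 0.8, 0.84, 0.81, 0.84, 0.84 and 0.84. Joining gaps of up to 500 bp gave an overlap of 0.8 and a distance to fed peaks of 30896 bp, which was 34982 bp among peaks scoring 100 or more and 3869 bp at equal covered length. Without each library in turn, members numbered 921 to 3018, the share was 10.7 to 35.6%, the width 3010 to 4446 bp, the distance 9146 to 27977 bp, the overlap 0.83 to 0.84 (fed libraries only) and the flank difference 6.71 to 11.97 points. The flank difference reversed to -1.61 points at equal covered length, where 5 members were left. A stricter bound holds fewer members by construction. Shorter lists can lose fed as well as fasted peaks, so their number of members can go either way. For the changes other than a stricter bound the cause was not tested. The replicate numbers of the labels pair no fed with a fasted library. With a replicate block by the number in the list names, whose meaning is not stated, an alternative added after the data were seen, the flank difference was 5.77 points in the pair numbered 10 and 9.12 in that numbered 11, with a mean of 7.44 (exact sign-flip permutation p = 0.5, the smallest that 2 pairs allow). Depth is unknown, so a weak fed signal at a member, below the authors' cutoff for peaks, would not be detectable in these lists.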

Other observations

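Chromosome X, which the rule leaves out, held regions of the same kind. Of 230 regions on X with a peak in both fasted libraries, 207 had no fed peak, against 8112 of 22696 (35.7%) on the autosomes. At or above the 70th percentile in both fasted lists there were 19, and 13 of these (68.4%) had no fed peak, against 7.37% on the autosomes. Their lower fasted percentile ranged from 73.8 to 87.3, with medians of 80.1 in fasted 2 and 86.4 in fasted 5. Their median width of 4037 bp was close to that of the autosomal members, and the median distance to a fed peak was 688158 bp. The difference between X and the autosomes was not tested over libraries. Males and females were used, and the sex of the animals in each pool is not known here, so sex and feeding state cannot be told apart on X.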
